A study of Mus musculus with 38 samples.

Results

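The genes described are 2 neurotrophins, Bdnf and Ntf3, and 4 receptors of neurotrophins or of their precursors, Ntrk2, Ntrk3, Ngfr and Sort1. They were listed by name and looked up by Ensembl identifier, and they are 6 of the 48709 genes counted in each mouse. The counts come from hippocampal RNA of 38 separate mice on a C57BL/6 background. APPPS1dE9 mice carry APP and PS1 transgenes with familial Alzheimer's disease mutations, which are expressed from the mouse prion protein promoter and lead to amyloid plaques. WT mice lack them, and all mice received a dry chow that held either anle138b, a diphenylpyrazole compound tested as a treatment in these mice, or no compound (placebo).

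In the pre-plaque group, treatment began before plaques form and the hippocampus was taken at 6 months of age. Each genotype and chow had 4 mice. In the post-plaque group, treatment began after amyloid deposition had started and the mice were 10 months of age. Each genotype and chow had 5 mice, but for the APPPS1dE9 mice with anle138b, which were 7.

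Neurotrophins are secreted growth factors that neurons make as precursors and cleave to the mature form. Mature BDNF binds the receptor tyrosine kinase TrkB, the product of Ntrk2, and NT-3, the product of Ntf3, binds TrkC, the product of Ntrk3. Both also bind p75, the product of Ngfr, which forms a receptor complex for the uncleaved precursors together with sortilin, the product of Sort1. In the adult hippocampus, Bdnf is made by pyramidal and granule neurons in response to synaptic activity, Ntf3 is best known from granule cells of the dentate gyrus, and p75 is best known from the fibres of cholinergic neurons that project there from the basal forebrain.

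In the GENCODE M21 annotation of GRCm38 (mm10), Bdnf (ENSMUSG00000048482) lies at chr2:109674700-109727007 on the plus strand and Ntf3 (ENSMUSG00000049107) at chr6:126101412-126166910 on the minus strand. The Trk receptor genes are Ntrk2 (ENSMUSG00000055254) at chr13:58806569-59133970 on the plus strand and Ntrk3 (ENSMUSG00000059146) at chr7:78175959-78738012 on the minus strand. Ngfr (ENSMUSG00000000120) lies at chr11:95568818-95587735 on the minus strand and Sort1 (ENSMUSG00000068747) at chr3:108284082-108361511 on the plus strand. All 6 are protein-coding genes. Ntrk2, Ntrk3 and Bdnf have 10, 20 and 11 annotated transcripts, and a gene's count sums all of them, so that the kinase and truncated forms of TrkB and TrkC are not told apart here. An antisense gene shares 14.41% of the exon bases of Bdnf and another shares 4.47% of those of Sort1. In all 38 mice together these antisense genes had 45 and 35 counts, and whether the counting used strand is not given in the sources used here.

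The ligand genes start at several places, and their counts do not say which start was used. RefSeq's annotation of GRCm38.p6 gave 7 start windows for Bdnf, 2 for Ntf3 and 1 each for Ntrk2 and Ngfr, each of 300 bases from 250 before to 50 after the start. These 11 windows were searched on both strands for TGACG, the core of the cAMP response element, for the full palindrome TGACGTCA, which contains it, and for the E-box CACGTG. The core was found in 1 of the 7 Bdnf windows and the E-box in 1 of the 2 Ntf3 windows, and the palindrome in none of the 11. Of 32851 such windows over 27025 genes, 20.8% held the core, 7.15% the E-box and 1.79% the palindrome. The 250 bases before the start of each window that held a match are shown 5′ to 3′ on the strand of the gene, because they are the windows among the 11 that held a match. Ntrk3 and Sort1 had no window and were not searched. Capitals mark the match, in Bdnf that of the core read on the other strand. The sequences lie at chr2:109692186-109692435 on the plus strand for Bdnf and at chr6:126166745-126166994 on the minus strand for Ntf3.
Bdnf: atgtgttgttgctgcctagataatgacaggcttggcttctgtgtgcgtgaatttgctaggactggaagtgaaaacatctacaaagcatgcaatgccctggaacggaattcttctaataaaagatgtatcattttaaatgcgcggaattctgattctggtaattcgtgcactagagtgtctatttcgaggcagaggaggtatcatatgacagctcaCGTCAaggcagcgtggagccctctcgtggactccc
Ntf3: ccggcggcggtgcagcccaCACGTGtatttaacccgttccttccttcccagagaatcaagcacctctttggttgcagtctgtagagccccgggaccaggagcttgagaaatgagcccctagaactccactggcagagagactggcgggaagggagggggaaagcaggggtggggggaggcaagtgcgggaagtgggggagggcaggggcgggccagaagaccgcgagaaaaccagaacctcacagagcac
The match of Bdnf begins 35 bases before the start and that of Ntf3 231 bases before it. A match describes the letters of a window and is not a measurement of binding.

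Several properties of the libraries bear on all results. Total counts per mouse ranged from 15847985 to 31895808. App, which the transgene adds to, was at 1522 to 1799 CPM (counts scaled to the library total alone) in WT mice and at 3274 to 4286 CPM in APPPS1dE9 mice. The 4 pre-plaque WT mice with placebo are transgenic by a second label, and their App was on the WT side. The study's methods name male mice, but 12 of the 38 mice had Xist at 1154 to 1453 CPM and Y-linked genes at no more than 1.89 CPM, namely 5 of 8 pre-plaque WT, 0 of 8 pre-plaque APPPS1dE9, 6 of 10 post-plaque WT and 1 of 12 post-plaque APPPS1dE9 mice. Sequencing lane and group were nearly inseparable, and no comparison of genotypes has a within-lane value. Markers of the hippocampus were present in every mouse, with summed levels of 4 CA1 pyramidal cell markers between 237 and 412 CPM. The 6 markers of choroid plexus, the epithelium beside the hippocampus that makes cerebrospinal fluid, ranged from 32.5 to 7980 CPM in sum.

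Per kilobase of exon, the receptors spanned the whole range of the family. Over the 38 mice, the sortilin gene Sort1 had the highest level, 107 ± 7.74 CPM per kb (mean ± SD, n = 38, with TMM-normalized CPM here and for all further genes), above 98.5% of the 18183 expressed genes with a length. The TrkB gene Ntrk2 followed at 33.5 ± 2.99 CPM per kb, and the TrkC gene Ntrk3 at 11 ± 1.42 CPM per kb. Of the ligands, Bdnf was at 6.92 ± 1.3 and Ntf3 at 4.31 ± 1.6 CPM per kb, above 65.3% and 54.2% of expressed genes. The p75 gene Ngfr was lowest at 0.753 ± 0.292 CPM per kb, above 24.3% of expressed genes, and rested on 24 to 183 counts per mouse. Of neighbours in this order, Bdnf and Ntf3 were less than the sum of their SDs apart, and the other neighbours were farther apart than that.

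Not divided by length, Bdnf ranged from 28.7 to 70.1 CPM and Ntf3 from 2.53 to 13.6 CPM over the 38 mice. Ntrk2 ranged from 553 to 712 CPM, Ntrk3 from 253 to 408 CPM and Sort1 from 695 to 905 CPM. The Trk receptors and sortilin thus lay within narrow ranges in all mice, while the ligands and Ngfr, at 1.07 to 5.69 CPM, had a wider spread for their level. The means of the 8 groups lay between 39.1 and 46.7 CPM for Bdnf, 5.73 and 8.28 CPM for Ntf3, 601 and 696 CPM for Ntrk2, 277 and 374 CPM for Ntrk3, 1.83 and 4.29 CPM for Ngfr and 755 and 846 CPM for Sort1.

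**Figure D1:**
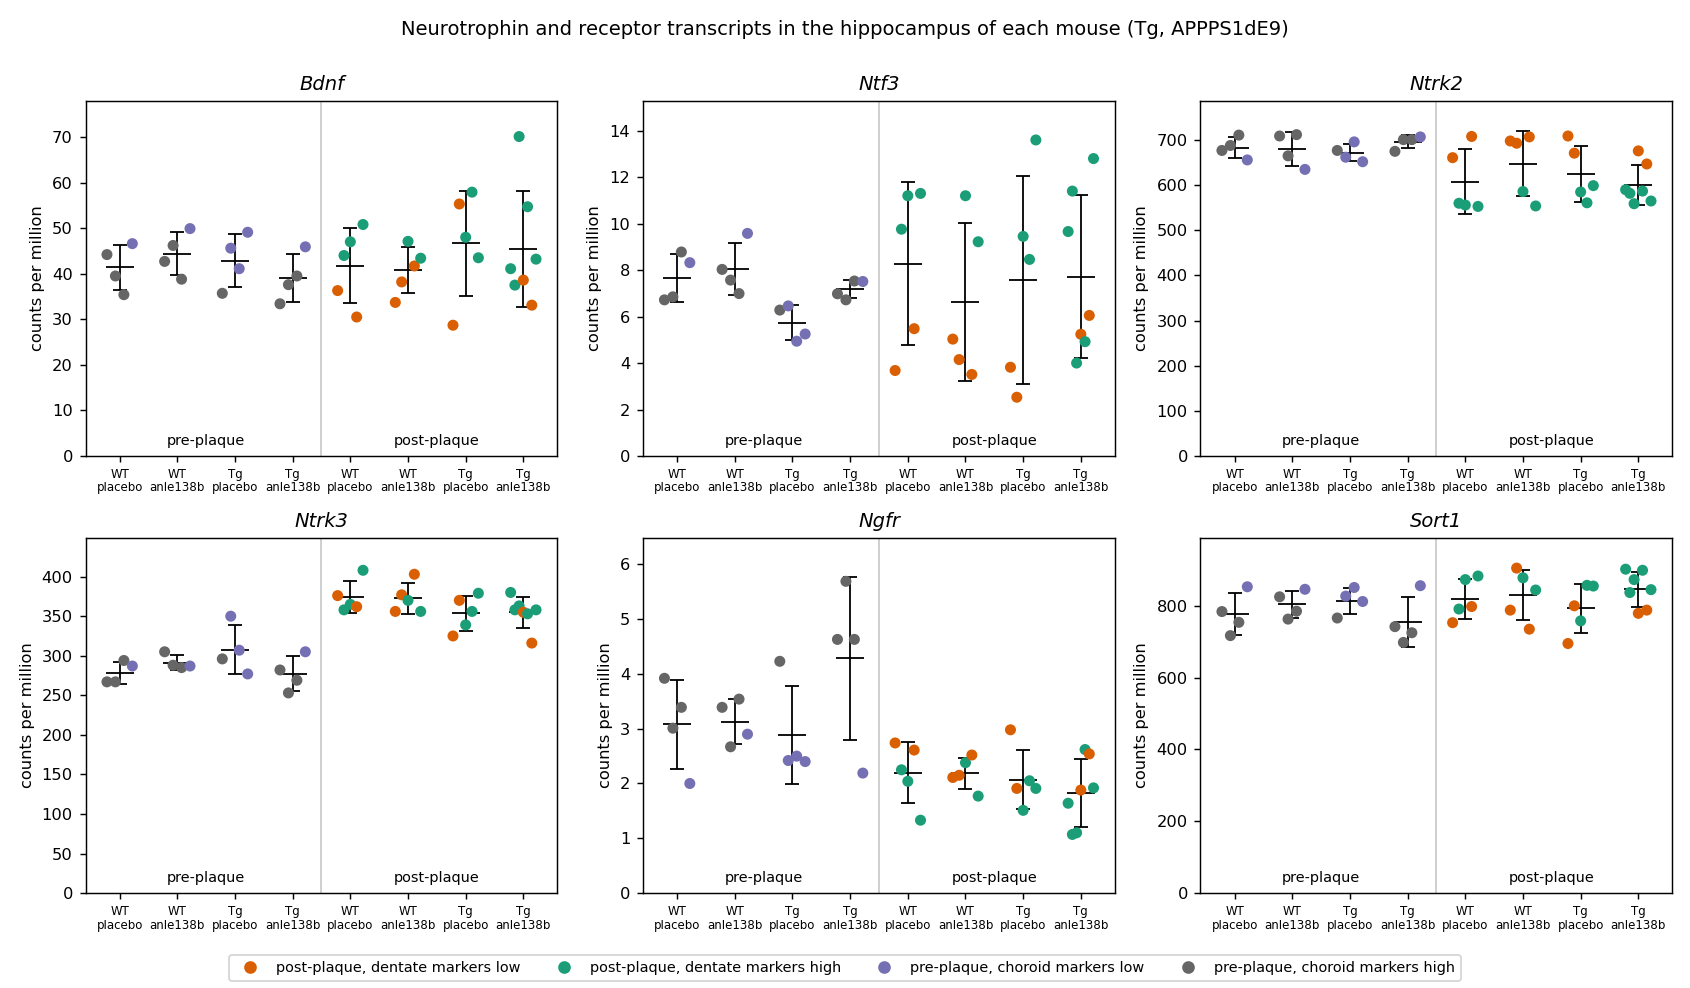
Levels of the 6 genes in CPM (y axis, from 0, a scale of its own in each panel) for every mouse in the 8 groups (x axis), with group means ± SD. Ntrk3 was higher and Ngfr lower in the post-plaque groups, and Ntf3 spread from 2.53 to 13.6 CPM among post-plaque mice.

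The spread between mice of the same group was itself uneven between the cohorts. The SD of log2 CPM of Ntf3 within groups was 0.17 among younger and 0.77 among post-plaque mice, a ratio of 4.5 that exceeded that of 98.4% of 18232 genes, against a median ratio of 1.2. For Ntrk2 the SD within groups was 0.053 and 0.14, a ratio of 2.68. Bdnf had a ratio of 1.83, while Ntrk3, Ngfr and Sort1 had ratios of 0.807, 0.928 and 1.12.

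The first question of the design was whether the amyloid transgenes changed the hippocampal transcriptome and whether anle138b altered it. No member was called in any of the 8 comparisons of 2 groups, which gave 48 tests with edgeR's quasi-likelihood test at a Benjamini-Hochberg adjusted p under 0.1. Between 0% and 0.723% of all genes tested were called in these comparisons. Of these 48 tests, 2 (4.17%) had an unadjusted p under 0.05, both of Ntf3 in the pre-plaque cohort. Those were also the only member tests in which the mice of the groups did not overlap, in 1 comparison of genotypes and 1 of chows in which 6.07% and 6.14% of all genes had such groups. In the other 6 comparisons, 1.5% and 0.265% of genes did so between chows in younger and older WT mice, 3.33% between younger genotypes with anle138b, 1.4% and 0.875% between older genotypes with placebo and with anle138b, and 0.0468% between chows in older APPPS1dE9 mice.

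Between placebo-treated pre-plaque mice, Ntf3, the NT-3 gene, was at 6.28, 6.46, 4.94 and 5.25 CPM in the 4 APPPS1dE9 mice and at 6.72, 6.85, 8.78 and 8.32 CPM in the 4 WT mice. All APPPS1dE9 mice lay below all WT mice. The difference was -0.42 on the log2 scale (SE 0.13, 95% interval -0.70 to -0.14, 0.749-fold, n = 4 and 4), with an edgeR adjusted p = 0.36. In this comparison 0.0715% of 16774 genes were called, 11.1% had an unadjusted p under 0.05, and the groups did not overlap for 6.07%. Of the WT mice 3 of 4 had high Xist and of the APPPS1dE9 mice none, and without them the difference was -0.61, a value with no test since it rests on 1 WT mouse. The WT libraries were in lane 4 and the APPPS1dE9 libraries in lane 5, so that lane and genotype cannot be told apart.

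Within the pre-plaque APPPS1dE9 mice, the 4 anle138b-treated mice had Ntf3 at 6.98, 6.72, 7.53 and 7.51 CPM, all above the 4 placebo-treated mice given before. The difference was 0.32 on the log2 scale (SE 0.11, 95% interval 0.076 to 0.56, 1.25-fold), with an edgeR adjusted p = 0.329. In this comparison 0.0529% of 17009 genes were called, 13.1% had an unadjusted p under 0.05, and the groups did not overlap for 6.14%. Both Ntf3 differences share the same 4 placebo-treated APPPS1dE9 mice, and the libraries of these 2 groups lay in lanes 5 and 6. The anle138b-treated WT mice were at 8.03, 7.57, 6.99 and 9.58 CPM and overlapped both with the placebo-treated WT mice and with the anle138b-treated APPPS1dE9 mice. The interaction of genotype and chow in the pre-plaque cohort was 0.26 for Ntf3 (SE 0.17, edgeR adjusted p = 0.675).

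In the post-plaque cohort, where Ntf3 spread widely in every group, the APPPS1dE9 mice differed from WT mice by -0.15 with placebo (95% interval -1.16 to 0.87) and by 0.22 with anle138b (-0.58 to 1.01). A change of Ntf3 of the size seen in the younger mice lies inside both intervals. The APPPS1dE9 mice with anle138b differed from those with placebo by 0.033 (-0.86 to 0.92), and the WT mice by -0.33 (-1.20 to 0.54).

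Bdnf, the ligand of TrkB, stayed within -0.18 and 0.16 on the log2 scale in all 8 comparisons, with adjusted p-values of at least 0.609. The interval that reached furthest above 0 was that between genotypes in placebo-treated post-plaque mice, -0.28 to 0.59, where the mice of the 2 genotypes were at 28.7, 55.3, 48, 57.9 and 43.5 CPM (APPPS1dE9) and at 36.3, 44, 47, 30.5 and 50.8 CPM (WT). The 2 genotypes overlapped over nearly their whole range. The difference furthest below 0 was that of anle138b-treated pre-plaque mice, -0.18 (SE 0.10, edgeR adjusted p = 0.836), with APPPS1dE9 mice at 33.4 to 45.9 CPM and WT mice at 38.8 to 49.9 CPM. In that comparison 0.047% of genes were called and 5.64% had an unadjusted p under 0.05.

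Ntrk2, the TrkB gene, differed by -0.11 to 0.092 and Sort1, the sortilin gene, by -0.11 to 0.096 in the same 8 comparisons. No 95% interval of Ntrk2 went beyond -0.27 or 0.31, and none of Sort1 beyond -0.26 or 0.24. These 2 genes therefore had intervals that leave room only for modest differences between the groups. Those of Ntrk3 were of a similar size, from -0.32 to 0.30. The intervals of Bdnf reached from -0.47 to 0.59 and those of Ntf3 from -1.20 to 1.01.

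Ntrk3, the TrkC gene, was at 296, 350, 307 and 277 CPM in placebo-treated pre-plaque APPPS1dE9 mice, against 267, 267, 294 and 287 CPM in placebo-treated WT mice. With anle138b, the APPPS1dE9 mice were at 282, 253, 269 and 305 CPM and the WT mice at 305, 288, 285 and 287 CPM. The genotype difference was 0.14 (SE 0.071, edgeR adjusted p = 0.486) with placebo and -0.068 (SE 0.056, edgeR adjusted p = 0.864) with anle138b, and the 2 groups overlapped in both. The interaction was -0.21 (SE 0.093, 95% interval -0.40 to -0.011) with an edgeR adjusted p = 0.618, in a fit that called 0% of genes and gave an unadjusted p under 0.05 for 7.99%, while DESeq2 called 28 genes. Its post-plaque counterpart was 0.013 (-0.15 to 0.17), where edgeR called 0% of genes, 2.3% had an unadjusted p under 0.05 and DESeq2 called 2 genes.

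Ngfr, the p75 gene, was at 4.63, 5.69, 4.63 and 2.19 CPM in anle138b-treated pre-plaque APPPS1dE9 mice and at 4.23, 2.42, 2.5 and 2.4 CPM in placebo-treated ones. The difference was 0.57 (SE 0.30, edgeR adjusted p = 0.441). In each group the mice above 4 CPM were exactly those with high choroid plexus markers, 3 of 4 with anle138b and 1 of 4 with placebo. With the marker level entered as a 2-level term, chosen after seeing the data, the difference was 0.070 (SE 0.16, edgeR adjusted p = 0.901). In each pre-plaque WT group 3 of 4 mice had high choroid plexus markers as well. Their Ngfr reached at most 3.92 CPM with placebo and 3.54 CPM with anle138b. Other marker lists also differed between mice with low and high choroid plexus markers, and which of them bears on Ngfr was not tested.

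In the other comparisons of 2 groups, the share of genes called was 0% between chows in pre-plaque WT, post-plaque WT and post-plaque APPPS1dE9 mice, 0.324% between genotypes in post-plaque mice with placebo and 0.723% with anle138b. The shares with an unadjusted p under 0.05 in these 5 comparisons were 1.85%, 1.25%, 1.48%, 4.1% and 5.78%, and DESeq2 called 2, 0, 0, 113 and 188 genes. None of the 6 members was among the genes called by edgeR.

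**Figure D2:**
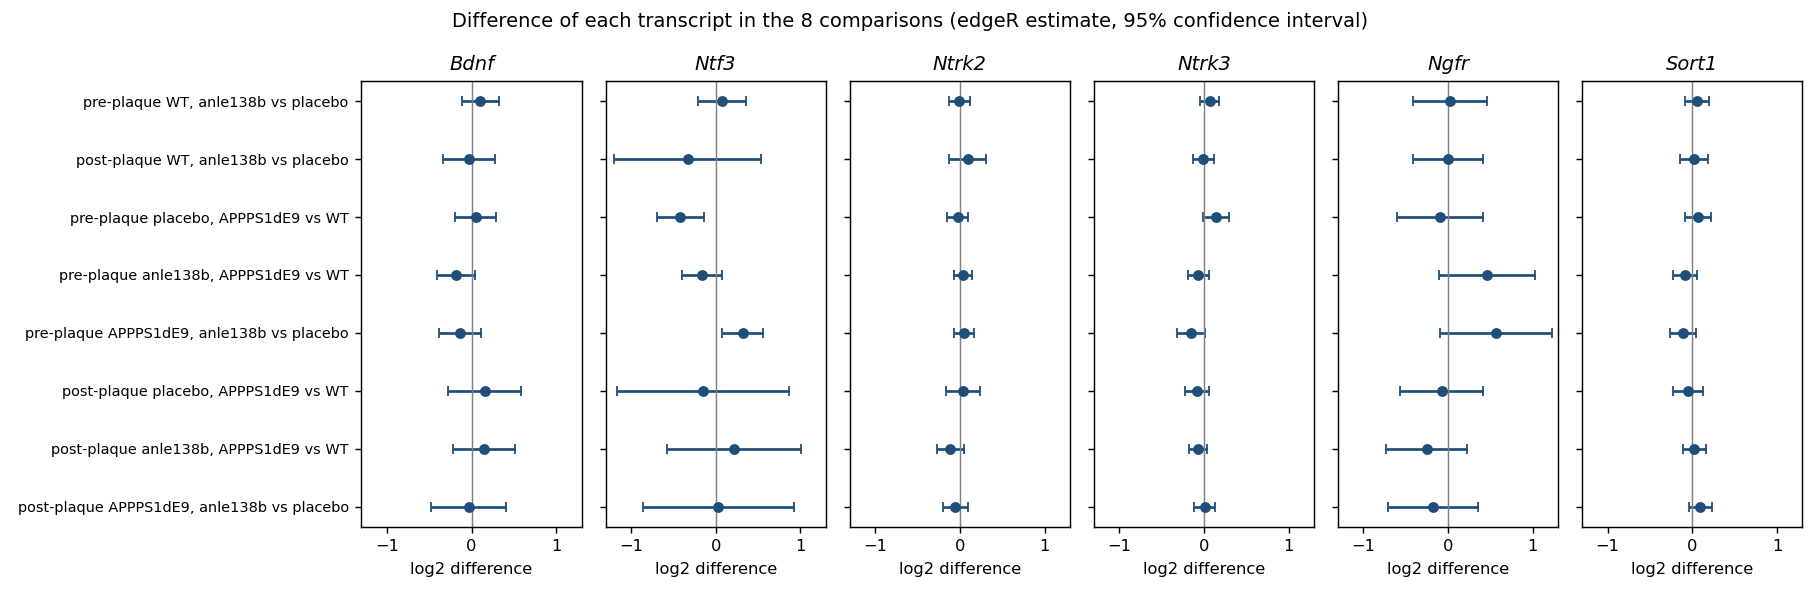
Log2 difference of each gene (x axis, with 95% interval) in the 8 comparisons of 2 groups (y axis), from edgeR. Every interval includes 0 but those of Ntf3 between pre-plaque genotypes with placebo and between chows in pre-plaque APPPS1dE9 mice, and neither passed the adjusted threshold.

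Averaged over cohort and chow, the genotype difference was 0.045 for Bdnf (SE 0.089), -0.13 for Ntf3 (SE 0.19), -0.015 for Ntrk2 (SE 0.038), -0.020 for Ntrk3 (SE 0.030), 0.009 for Ngfr (SE 0.13) and -0.011 for Sort1 (SE 0.034). The adjusted p-values were at least 0.927, so 0 of 6 members were called in a fit that called 1.46% of 18232 genes and gave 8.91% an unadjusted p under 0.05. For the chow the differences lay between -0.026 for Bdnf and 0.10 for Ngfr, with adjusted p-values of 1. There 0% of genes were called, 4.81% had an unadjusted p under 0.05, and DESeq2 called 5 genes. The genotype difference of the post-plaque minus that of the pre-plaque cohort was largest in size for Ngfr, -0.34 (SE 0.26), and smallest in p for Ntrk3, -0.11 (SE 0.060, edgeR adjusted p = 0.73). That fit called 0.176% of genes and none of the 6 members, and 7.42% of genes had an unadjusted p under 0.05.

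Mice of the same group differed from each other in marker levels of hippocampal subfields. In the post-plaque cohort, the summed level of 6 dentate granule cell markers (Prox1, C1ql2, Dsp, Tdo2, Stxbp6 and Pdzd2) was 216 to 346 CPM in 9 mice and 465 to 758 CPM in 13 mice, with no mouse between. The 9 low mice came from every group, as 2 of 5 WT mice with placebo, 3 of 5 WT mice with anle138b, and 2 of 5 and 2 of 7 APPPS1dE9 mice with these chows. Other lists moved with this split. Oligodendrocyte markers were at 2090 to 3420 CPM in the low and 4450 to 6430 CPM in the high mice, CA2 and CA3 markers at 227 to 299 and 326 to 436 CPM, and interneuron markers at 719 to 896 and 556 to 736 CPM. Mural cell markers were at 137 to 161 and 111 to 132 CPM. Median sums in the low and high mice were 36.6 and 90.9 CPM for thalamus, 172 and 56.2 CPM for meningeal fibroblast and 153 and 156 CPM for endothelial cell markers. In bulk tissue, fewer cells of a type and less RNA per cell cannot be told apart, and whether the dissections differed was not tested. The split was made at the widest gap of the marker level after the data were seen, and the values by set are a description.

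Ntrk2 followed this split without overlap. It was at 647, 693 and 709 CPM (lowest, median and highest) in the 9 mice with low dentate markers and at 553, 565 and 599 CPM in the 13 mice with high ones. The 2 sets were apart from each other for 9.72% of genes, and of the 6 members only for Ntrk2. Within each set Ntrk2 varied little, with SDs of 22.7 and 16.2 CPM.

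The NT-3 gene Ntf3 ran the other way. It was at 2.53, 4.15 and 6.05 CPM in the low and at 4, 9.76 and 13.6 CPM in the high mice, and the 2 high mice below 6.05 CPM, at 4 and 4.92 CPM, were both anle138b-treated APPPS1dE9 mice. Bdnf lay at 28.7, 36.3 and 55.3 CPM in the low and at 37.5, 47 and 70.1 CPM in the high mice, and Sort1 at 695, 788 and 905 against 758, 857 and 902 CPM. Both overlapped between the sets while their medians were lower in the low mice. Ngfr had medians of 2.52 CPM in the low and 1.91 CPM in the high mice. Ntrk3 was near equal, with medians of 362 and 358 CPM.

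In the pre-plaque cohort the dentate markers ranged only from 358 to 486 CPM, and the mice were split by choroid plexus markers, with 6 mice at 64.7 to 720 CPM and 10 at 3970 to 7980 CPM. The high mice were 3 of 4 in each WT group, and 1 of 4 APPPS1dE9 mice with placebo and 3 of 4 with anle138b. None of the 6 members was without overlap between these sets, as against 4.05% of genes. Ngfr was at 2, 2.41 and 2.9 CPM (lowest, median and highest) in the low and at 2.67, 3.73 and 5.69 CPM in the high mice. Sort1 was at 812, 848 and 856 CPM in the low and at 698, 758 and 825 CPM in the high mice. Ngfr thus was lower and Sort1 higher in the mice with little choroid plexus RNA, with a narrow overlap for each. Other lists differed between these sets as well. Median sums in the low and high mice were 5.37 and 11.5 CPM for cholinergic neuron, 57.5 and 91.4 CPM for thalamus and 21.7 and 33.9 CPM for striatum markers. Microglia markers went the other way, with medians of 361 and 309 CPM. Which of these lists bears on Ngfr or Sort1 was not tested. Bdnf had medians of 46.2 and 39.1 CPM, Ntf3 of 6.98 and 6.99 CPM, Ntrk2 of 659 and 694 CPM and Ntrk3 of 296 and 284 CPM.

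Because the mice fell into such sets, no correlation of a member with a marker level was taken over all mice. Within the 4 sets, 24 relations of a member with the marker level of its set were computed, and 0 had a permutation p under 0.1 after adjustment. The smallest was that of Ntf3 with dentate markers in the 13 high post-plaque mice, with Pearson's r = 0.6 (permutation p = 0.027, adjusted 0.51) and Spearman's rho = 0.73 (permutation p = 0.0063, adjusted 0.15). Without the 2 mice farthest from the median marker level, r was 0.59.

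**Figure D3:**
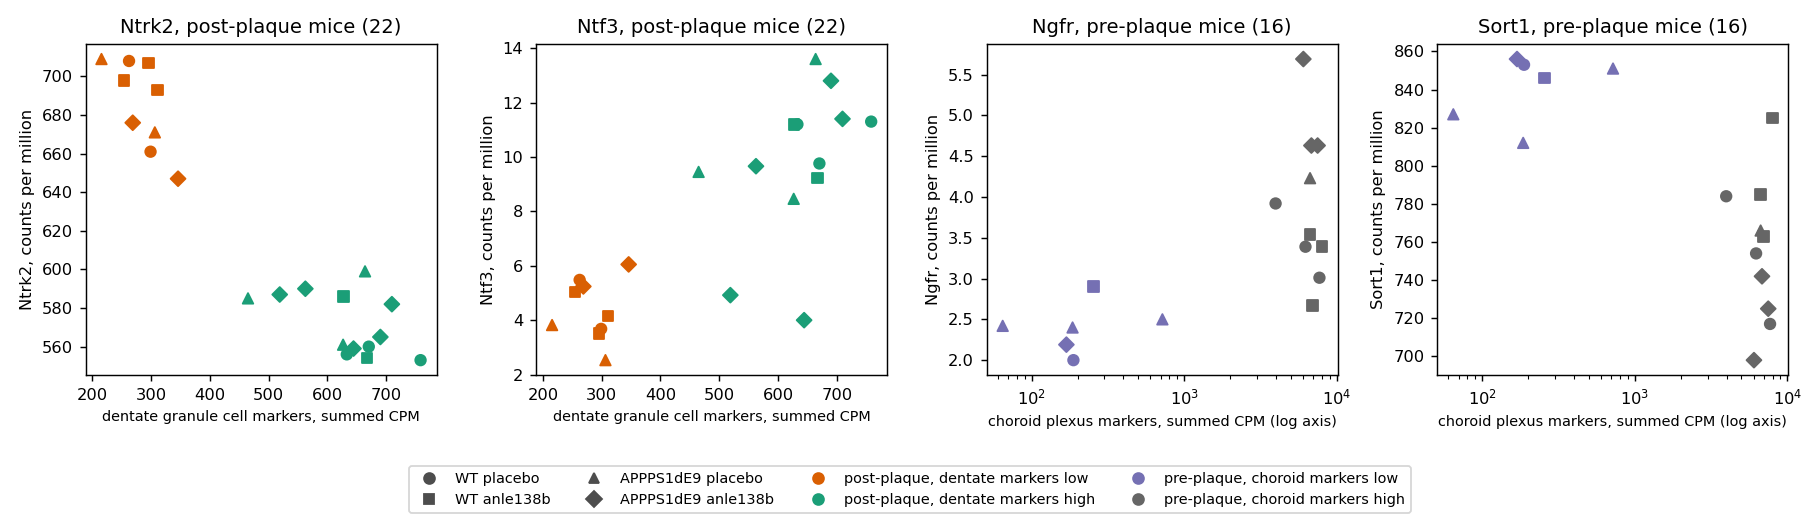
Levels in CPM (y axis) of Ntrk2 and Ntf3 in the post-plaque mice against the summed dentate granule cell markers (x axis). Ngfr and Sort1 are shown in the pre-plaque mice against the summed choroid plexus markers (x axis, log scale). Colors mark the mice with low and high markers, and shapes the genotype and chow. Ntrk2 lay between 647 and 709 CPM in the 9 post-plaque mice with low dentate markers and between 553 and 599 CPM in the 13 with high ones.

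Entering these sets as a term in each fit, chosen after seeing the data, gave 0 called members in all comparisons of groups, both interactions and the averaged genotype and chow differences. Ntf3 in placebo-treated pre-plaque mice was then at -0.42 (SE 0.15, edgeR adjusted p = 0.563) between genotypes and at 0.30 (SE 0.13, edgeR adjusted p = 0.54) between chows in APPPS1dE9 mice. The averaged genotype difference of Ntf3 was -0.21 with an adjusted p of 0.5. In 1 comparison the choice of mice gave member calls. Among post-plaque WT mice without high Xist, 2 with anle138b against 2 with placebo, edgeR called Ntf3 (-1.19), Bdnf (-0.40) and Ntrk2 (0.32) together with 5550 genes in all. The 2 mice with anle138b were both among those with low dentate markers and the 2 with placebo both among those with high ones.

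Between the cohorts, 3 of 6 members were called, all of them receptors, in a comparison that called 61.8% of all genes and gave 60% an unadjusted p under 0.05. Age, time of treatment and the processing of the libraries move together between the 22 post-plaque and 16 pre-plaque mice and cannot be told apart. Some sample numbers recur with the same lane in the titles of both cohorts, and the sequencing run itself is not given.

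Ntrk3, the TrkC gene, was higher in the post-plaque mice, at 363 ± 21 CPM (SD, n = 22, 316 to 408 CPM with a median of 360) against 289 ± 22.4 CPM (n = 16, 253 to 350 CPM with a median of 287). The difference was 0.33 on the log2 scale (SE 0.030, 1.26-fold, edgeR adjusted p = 4.29e-11). In each genotype and chow, the mean was higher in the older mice. Ntrk3 was the member with the largest difference against its spread, and only a few mice of the 2 cohorts overlapped.

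Ngfr, the p75 gene, was lower in the post-plaque mice, at 2.05 ± 0.517 CPM (1.07 to 2.98 CPM with a median of 2.04) against 3.34 ± 1.04 CPM (2 to 5.69 CPM with a median of 3.2). The difference was -0.68 (SE 0.13, 0.625-fold, edgeR adjusted p = 3.16e-05). Choroid plexus markers were lower in the post-plaque mice as well, with 6 of 6 called and a median log2 difference of -3.90. Without the 10 pre-plaque mice and 1 post-plaque mouse above 1000 CPM in these markers, the difference of Ngfr was -0.22 and that of Ntrk3 was 0.29. That choice, made after seeing the data, left some pre-plaque groups with 1 mouse, so these values are given without a test. Of 4 cholinergic neuron markers 2 passed the filter on low counts, and Chat and Slc18a3 were at 0 in some mice. Of the 2 tested, 1 was called lower in the post-plaque mice, with a median log2 difference of -0.555. The sums of the 4 were 3.32 to 26 CPM (median 7.42) in pre-plaque and 2.08 to 20.7 CPM (median 3.15) in post-plaque mice. Whether these or the choroid plexus markers bear on the Ngfr difference was not tested.

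Ntrk2, the TrkB gene, was lower in the post-plaque mice by 0.908-fold (log2 difference -0.14, SE 0.038, edgeR adjusted p = 0.00233), at 618 ± 60.1 CPM against 683 ± 24 CPM. The post-plaque mice with low dentate markers had a median of 693 CPM, within the pre-plaque range of 635 to 712 CPM. Against the pre-plaque mice, these 9 mice alone differed by 0.002 (SE 0.028, edgeR adjusted p = 0.961) and the 13 high mice alone by -0.25 (edgeR adjusted p = 4.89e-10). Ntrk2 did not overlap between the 2 sets of post-plaque mice, so the 2 values describe the split and are not a separate test. Without the low mice, 13000 genes were called, against 11276 over all mice.

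Ntf3 was not called over all mice (0.085, SE 0.19, edgeR adjusted p = 0.717), but the 2 sets of post-plaque mice lay on opposite sides of the pre-plaque level. It was 0.50 higher in the high mice (edgeR adjusted p = 0.00184) and 0.71 lower in the low mice (log2 difference -0.71, edgeR adjusted p = 9.99e-07). Bdnf was at 0.057 over all mice (SE 0.089, edgeR adjusted p = 0.604), at 0.20 for the high mice alone (edgeR adjusted p = 0.0382) and at -0.18 for the low mice alone (edgeR adjusted p = 0.123). Sort1 was at 0.062 over all mice (SE 0.034, edgeR adjusted p = 0.126), at 0.12 for the high mice alone (edgeR adjusted p = 0.00322) and at -0.016 for the low mice alone (edgeR adjusted p = 0.773). Only Ntrk3 and Ngfr had the same direction and passed the threshold with either set, Ntrk3 at 0.35 and 0.31 and Ngfr at -0.82 and -0.47 with the high and the low mice. These sets were chosen after seeing the data, and the values by set are a description.

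**Figure D4:**
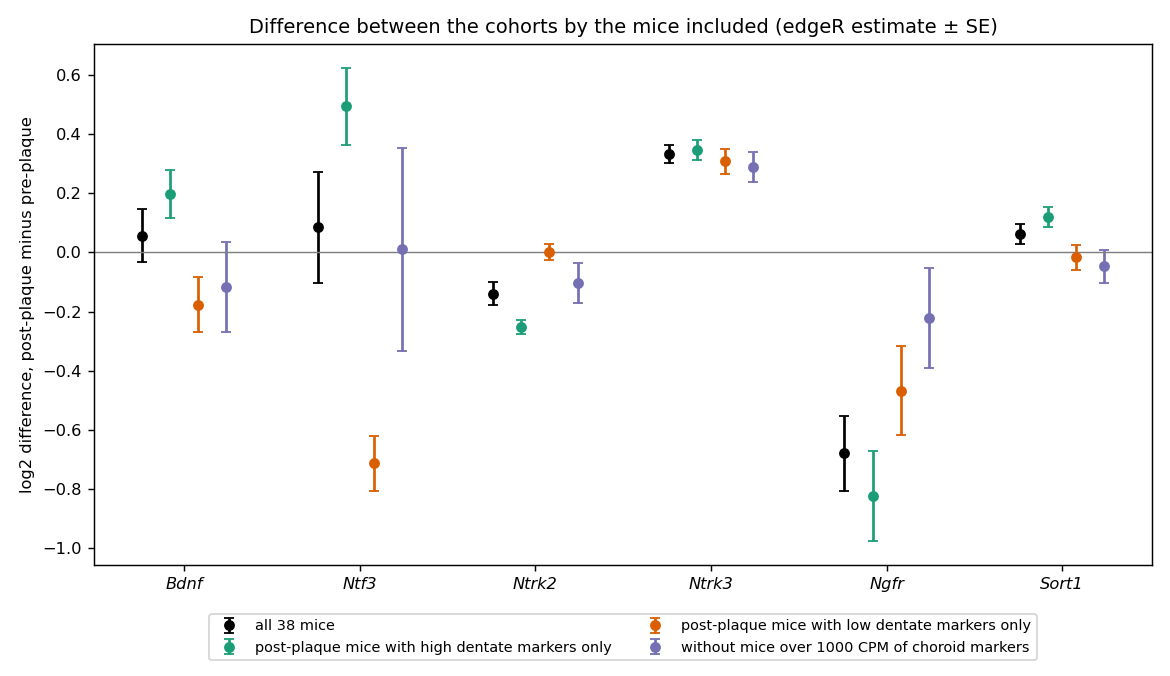
Log2 difference of post-plaque minus pre-plaque mice (y axis, edgeR estimate ± SE) for each gene (x axis), over all mice and without sets of mice chosen by marker level. Ntrk3 lay above 0 in every choice, from 0.29 to 0.35, while Ntf3 ran from -0.71 to 0.50. The choice without mice above 1000 CPM of choroid plexus markers left some pre-plaque groups with 1 mouse.

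The lists of other genes of the pathway were described by their counts. In the 8 comparisons of 2 groups, none of the genes was called of 6 lists, which held other neurotrophins and receptors, processing enzymes of neurotrophins, Trk signalling, partners and signalling of p75, transcription regulators of Bdnf, and genes induced by neuronal activity. The same held for both interactions, the averaged chow difference and the change of the genotype effect from younger to older mice.

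Averaged over all groups, APPPS1dE9 mice had higher levels of 2 of 18 activity-induced genes, beside 1.46% of all genes called in this fit. These were Egr2 (1.33, SE 0.34, edgeR adjusted p = 0.0392) and Fos (1.07, SE 0.29, edgeR adjusted p = 0.0731), both transcription factors of the immediate early response. Egr2 was low, at means of 1.72 CPM in pre-plaque and 1.71 CPM in post-plaque mice, with a lowest value of 0.168 CPM. The median of the list was 0.25, against -0.004 over all genes. Npas4, an activity-induced regulator of Bdnf transcription, was at 0.46 (SE 0.19, edgeR adjusted p = 0.443), beside Bdnf itself at 0.045. In Trk signalling, 1 of 39 genes was higher, the docking adaptor Frs2 at 0.11 (SE 0.027, edgeR adjusted p = 0.017). None of the 6 other neurotrophins and receptors tested, 12 processing genes, 14 p75 partners and 15 regulators of Bdnf was called. Among the processing genes, Furin had the lowest p, with a log2 difference of 0.061 (SE 0.046, edgeR adjusted p = 0.799). Among the p75 partners it was Arhgdia, with a log2 difference of 0.040 (SE 0.02, edgeR adjusted p = 0.596), and among the regulators of Bdnf it was Npas4. With the genotype, markers of microglia also moved, with 3 of 5 higher, as did 1 of 5 astrocyte markers, Gfap (0.67, edgeR adjusted p = 0.0011). High Xist was mostly found in WT mice and lane nearly followed genotype, and their part in the differences of these listed genes was not tested.

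Between the cohorts, 21 of 39 Trk signalling genes were called, 11 higher and 10 lower in the post-plaque mice, beside 61.8% of all genes called in this comparison, against which the counts of all lists are to be read. Plcg1, the phospholipase that Trk receptors recruit, was 0.32 higher (edgeR adjusted p = 2.97e-12). The adaptors Shc2 and Shc3 went opposite ways, at 0.36 and -0.36, and the exchange factor Sos1 was at 0.23. Of 14 partners of p75, 6 were higher, among them Irak1 (0.30), Aph1a, a subunit of gamma-secretase (0.27), Ripk2 (0.25) and Zfp369 (0.18), and 4 were lower. Of 15 regulators of Bdnf, 5 were higher and 0 lower, led by Npas4 (0.61), the CREB coactivators Crtc2 (0.52) and Crtc1 (0.28) and the calcium channel subunit Cacna1c (0.29).

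Of 12 processing genes, 3 were higher and 3 lower in the post-plaque mice, with the proprotein convertases Pcsk7 at 0.36, Pcsk5 at 0.21 and Pcsk1 at -0.48, and the protease inhibitor Serpini1 at -0.22. Of 6 other neurotrophins and receptors, 1 was higher and 2 were lower, the latter being Ntf5, the NT-4 gene, at -0.55 (edgeR adjusted p = 0.0715) and the sortilin relative Sorcs1 at -0.31 (edgeR adjusted p = 0.00435). Ntf5 was very low, at means of 0.417 CPM in pre-plaque and 0.292 CPM in post-plaque mice, with a lowest value of 0.091 CPM. Of 18 activity-induced genes, Nptx2 was called higher (0.30) and Rheb lower (-0.17). The median differences of the 6 lists lay between -0.027 and 0.071, beside -0.015 over all genes.

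For each member, the 3 genes whose deviations from the group means of log2 CPM were most alike over the 38 mice were looked up, as a description. The mice share the sets described above, so these likenesses are not independent of them. Ntrk2 was most like Kcnn3, a calcium-activated potassium channel gene (Pearson's r = 0.945 over 38 mice, 0.577 among pre-plaque and 0.979 among post-plaque mice), Lrpprc and Adamts14. Ntf3 was most like Kcnk2, a background potassium channel gene (0.918 over 38 mice, 0.392 and 0.934 in the cohorts), Igfbp5 and Wnt9a. For both genes, the likeness was weaker in the pre-plaque mice, and that of Ntf3 with Igfbp5 was -0.016 there and 0.955 in the post-plaque mice.

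Sort1 was most like Nell2, a secreted neuronal glycoprotein gene, at 0.919 over 38 mice and at 0.94 and 0.919 in the cohorts, followed by Aak1 and Cyfip2. Bdnf was most like Kmt5a, a histone methyltransferase gene, at 0.871 (0.747 and 0.894), Acvr1 and Syne1. Ntrk3 was most like Usf3 at 0.825 (0.9 and 0.741), Dock9 and Zfp871, and Ngfr was most like Khnyn at 0.771 (0.732 and 0.802), Catip and Btd. For these 4 members, the likeness differed less between the cohorts than for Ntrk2 and Ntf3.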

How the data were processed

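Hippocampal mRNA of 38 mice was sequenced by the authors from TruSeq libraries, mapped to mm10 with STAR and assigned to genes by HTSeq (intersection-nonempty). They deposited raw read counts of 48709 Ensembl genes per mouse, without normalization, and the annotation release is not given in the sources used here. Groups follow the sample titles. The 6 genes and the gene lists were chosen with earlier results of these data known.

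From the deposited counts, genes passing filterByExpr (minimum count 10, minimum total 15) were scaled by TMM and compared with edgeR 4.0.16 in R 4.3.3 (quasi-likelihood, robust), each pair of groups alone and interactions and averages in fits over 4 or 8 groups. A call was a Benjamini-Hochberg adjusted p under 0.1, as in the gene lists that accompany the study, whereas its methods name 0.05, which was tried as an alternative. The scripts were tested on simulated data. Log2 CPM used a prior count of 2. Symbols and coordinates came from GENCODE M21, which has 48349 of the genes.

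All 6 members are named. Of each list, the genes named are at most the 4 with the largest change among those called in a comparison, or else the 1 with the smallest p, and an item that is withheld is not reported here. Alternatives were DESeq2 1.42.0, no filter on low counts, RLE size factors, Y-linked expression as a covariate, an adjusted p under 0.05, no mice with high Xist, a single fit per cohort, single lanes, the replicate number as a block and each mouse left out in turn. Marker sets as a term, and leaving sets out, were added after seeing the data. Total counts had a median of 24530658, and all 75 pairs of same-group mice differed beyond sampling noise (chi-square divided by its degrees of freedom at least 3.17).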

Additional observations from a re-analysis of the deposited data

Results flagged for a closer look

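In 3 of the 48 groups of values tested (6 genes in 8 groups), a single mouse lay far from the others of its group, and chance alone gives this in about 1 in 20 groups. Ntrk3 was at 316 CPM in anle138b-treated post-plaque APPPS1dE9 mouse 6, while the other 6 mice of the group were at 353 to 380 CPM. In anle138b-treated pre-plaque WT mouse 1 it was at 305 CPM, while the other 3 were at 285 to 288 CPM. Ngfr was at 4.23 CPM in placebo-treated pre-plaque APPPS1dE9 mouse 1, while the other 3 were at 2.4 to 2.5 CPM. That mouse was the only 1 of its 4 with high choroid plexus markers, whose part in its Ngfr level was not tested.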

How the results depend on the processing

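The number of members called stayed at 0 under every alternative in 12 of the 13 comparisons in which it was 0, and the settings included DESeq2, RLE size factors, single lanes and each mouse left out. The exception was post-plaque WT mice between chows without those with high Xist, with 3 members called, where chow and dentate marker level cannot be told apart. Between cohorts, 6 members were called without the post-plaque mice with low dentate markers, where 13000 of all genes were called, against 11276 in the main fit. The fit without the mice with choroid plexus markers over 1000 CPM left some pre-plaque groups with 1 mouse, and its counts are not given. Both choices were made after seeing the data. With each mouse left out, 3 to 4 members and 10917 to 11484 genes were called, and Sort1 was called in 8 of 38 fits (edgeR adjusted p from 0.0452). Cohort differences that changed sign were those of Bdnf (-0.18 without the high dentate mice and -0.12 without the choroid-rich mice), Ntf3 (-0.71 without the high dentate mice and -0.008 with the set as a term), Ntrk2 (0.002 without the high dentate mice) and Sort1 (-0.016 and -0.046 in the same 2 choices as Bdnf). With the set as a term, the averaged genotype difference turned to -0.018 for Bdnf and 0.013 for Ntrk2, and the chow difference of Bdnf to 0.018. The chow difference of Ntf3 was -0.25 without the mice with high Xist. With each mouse left out, the genotype difference ranged from -0.053 to 0.059 for Ngfr and from -0.031 to 0.002 for Sort1, and the chow difference from -0.047 to 0.10 for Ntf3 and from -0.004 to 0.027 for Sort1. None of these reversed genotype or chow differences was called, and the cause of the reversals was not tested. Of all 229 single differences under alternatives other than left-out mice, these included, 211 kept their direction and their side of the threshold.

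The replicate numbers did not pair the mice. Same-numbered mice correlated in their deviations at a mean r between -0.219 and 0.308 per comparison, and in no comparison was every pair over 0.1. A replicate block left the count of members at 3 between cohorts and at 0 elsewhere, and turned the averaged genotype difference of Ngfr to -0.042. It moved the number of all genes called between genotypes from 55 to 25 in post-plaque mice with placebo, from 124 to 20 with anle138b, from 12 to 8 in pre-plaque mice with placebo and from 8 to 13 with anle138b, and for the genotype effect between cohorts from 32 to 20. Other settings gave 4 to 110, 6 to 42 and 3 to 205 genes in the pre-plaque comparisons between genotypes with placebo, between genotypes with anle138b and between chows in APPPS1dE9 mice, and leaving out each mouse gave 6 to 205, 9 to 44 and 6 to 317. The 205 and 317 came without APPPS1dE9 placebo replicate 1, and the 44 without APPPS1dE9 anle138b replicate 4. With 4 to 7 mice per group and 24 to 183 counts of Ngfr per mouse, differences of Ngfr and Ntf3 were bounded only loosely.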
